A study of Bos taurus and Bos grunniens x Bos taurus and Bos grunniens with 18 samples.

Results

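Circular RNAs (circRNAs) are closed loops of RNA made when the splicing machinery joins the end of an exon back to the start of the same or an earlier exon. They lack free ends, resist exonucleases and are abundant in testis, where their levels change as germ cells pass through meiosis and become spermatids. Back-splicing is promoted or suppressed by RNA-binding proteins and competes with the splicing of linear mRNA, so that a circRNA can change without its host gene. The circRNAs described here are those found in the testes of both parent species, cattle and yak, and not in all testes of their hybrid, the cattle-yak, in which males are sterile and females are fertile.

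A circRNA was included when it had at least 2 reads in all 3 cattle and all 3 yak libraries and did not have at least 2 reads in all 3 cattle-yak libraries. This gave 532 of the 5730 circRNAs in the table. The same reads chose these circRNAs, so their levels in cattle-yak against the parents are given as a description with no test. The table identifies each circRNA by a number alone. Host genes, positions and sequences were not used here, and most circRNAs are called below by their rank in mean reads over the 6 parental libraries.

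The groups were 3 cattle (Bos taurus), 3 yaks (Bos grunniens) and 3 cattle-yaks (Bos grunniens x Bos taurus, labelled Dzo), each animal 4 years old. All came from one cooperative and were castrated to obtain the testes, and which species was the dam is not stated in the labels. RNA was depleted of ribosomal RNA and sequenced in directional libraries with paired reads of 125 nt. The submitters' processing notes name 1 genome build, a cattle one, for all 3 groups, and its part in the values of yak and cattle-yak was not tested. Whole testis was sampled, so that fewer cells of a type and less RNA per cell cannot be told apart in any value below.

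CircRNA reads in the table summed to between 44469 and 65174 per library, with 50533, 60791 and 65174 in the cattle-yak libraries. The first of these lay within the parental range of 44469 to 54317 and the other two above it. The total counts only the circRNAs listed, each with at least 2 reads throughout 1 group or more, and is not the depth of the library. No value of 1 occurs in the table, so a listed 0 can stand for 0 or 1 read. The libraries held testis markers, with PRM1, the protamine of elongating spermatids, at 15597 FPKM on average in cattle and 13901 in yak. In cattle-yak PRM1 averaged 24.1 FPKM, and the summed level of 5 spermatid markers lay between 12.1 and 73.9 FPKM against 13367 to 24907 in cattle and 18054 to 19910 in yak. One library stood apart: in cattle replicate 2, 48 circRNAs were at 0 while both other cattle libraries had at least 10 reads, against 4 to 13 such circRNAs in each of the other 8 libraries.

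The name "missing in cattle-yak" held for only some of the 532. All 3 cattle-yak libraries were at 0 for 175 circRNAs, 32.9% of them. Reads were present in exactly 1 cattle-yak library for 153 circRNAs and in exactly 2 for 204. The 532 circRNAs are therefore best read as circRNAs not detected throughout the hybrid, part of which were at 0 in all its libraries. Cattle-yak replicates 1, 2 and 3 had reads for 202, 204 and 155 of them.

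Together the 532 circRNAs took 10.7, 10.7 and 10.7% of the circRNA reads in the cattle libraries and 11.8, 9.74 and 10.4% in the yak libraries. In the cattle-yak libraries they took 1.83, 1.63 and 1.32%. The cattle and yak libraries overlapped, and the highest cattle-yak library lay far below the lowest parental one. The group mean for cattle-yak was 1.59 ± 0.255% (SD, n = 3), beside 10.7 ± 0.0549% for cattle and 10.6 ± 1.03% for yak. Measured per 100 reads of the 1497 circRNAs present in all 9 libraries, the 532 had 17.3 to 18.8 reads in cattle, 15.5 to 19.1 in yak and 2.33 to 3.15 in cattle-yak. These values follow from the rule and are no evidence beyond it.

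**Figure D1:**
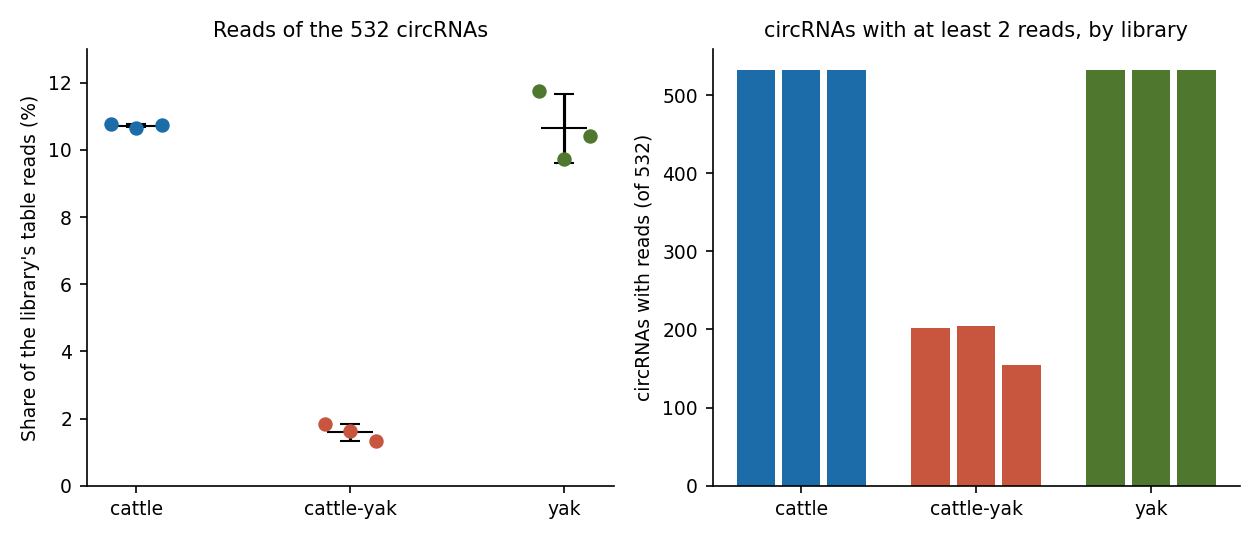
Left, the share of each library's circRNA reads (%) held by the 532 circRNAs, with points for libraries and bars for mean ± SD (n = 3); right, the number of the 532 with at least 2 reads in each library. Cattle-yak libraries hold 1.32 to 1.83% of reads and 155 to 204 of the circRNAs.

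Most of these circRNAs were of low abundance in the parents. Mean reads over the 6 parental libraries ran from 2.5 to 74, with a median of 7.17 and quartiles of 5.17 and 12.7. A mean under 5 reads was found for 119 circRNAs and a mean of 20 or more for 50. CircRNAs present in all 9 libraries had a higher median of 10.2 reads in the same 6 libraries. Low abundance was not particular to the 532. CircRNAs shared by cattle and cattle-yak but not yak had a median of 6.67 reads in the libraries of those groups. Those shared by cattle-yak and yak but not cattle had 6.5. In 181 of the 532, at least 1 parental library sat at the threshold of 2 reads. The reads were spread over many circRNAs, the 20 most abundant holding 15.1% of all 32586 parental reads of the 532.

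The most abundant of the 532 circRNAs had 107, 111 and 136 reads in cattle, with 30, 27 and 33 for yak and 2, 7 and 0 for cattle-yak. Every cattle-yak library lay below every parental library, and cattle lay above yak. The circRNA of rank 2 had 39, 50 and 70 reads in cattle, with 91, 30 and 65 for yak and 2, 4 and 0 for cattle-yak. Here the 2 parent species overlapped while cattle-yak lay below both. Rank 4 had 46, 39 and 62 reads in cattle, with 63, 40 and 44 for yak and 4, 8 and 0 for cattle-yak. Rank 6 had 56, 19 and 34 reads in cattle, with 55, 41 and 51 for yak and 4, 0 and 4 for cattle-yak. Parents overlapped in both, above every hybrid library. Rank 10 had 60, 44 and 38 reads in cattle, with 41, 22 and 34 for yak and 0, 5 and 3 for cattle-yak. In all 5 of these circRNAs at least 1 hybrid animal had no listed reads and the others had 8 or fewer.

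Of the 10 most abundant, 4 were at 0 throughout cattle-yak. Rank 3 had 49, 97 and 66 reads in cattle and 39, 19 and 31 in yak. Rank 5 had 93, 86 and 73 reads in cattle and 7, 19 and 14 in yak. Both had 0 reads in every cattle-yak library, although rank 5 came largely from cattle. Rank 7 showed the opposite balance of the parents, with 16, 30 and 17 reads in cattle and 111, 39 and 42 in yak. Rank 9 had 45, 49 and 77 in cattle and 21, 23 and 32 in yak. Absence in the hybrid was thus seen both for circRNAs richer in cattle and for circRNAs richer in yak.

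Against a floor of 3 reads summed over the 3 cattle-yak libraries, which is 17.0 reads per 1000000 table reads (the scaled level used below), rank 3 was at least 57.4-fold lower in cattle-yak and rank 5 at least 55.1-fold lower. Over the 175 circRNAs at 0 this bound had a median of 8.14-fold and ran from 2.95 to 57.4-fold. It reached 4-fold in 162 of them. The bounds take a listed 0 as 0 reads: a hidden read in each library would reach the floor by itself and leave no room for counting error. Reads copied by PCR are also not independent molecules.

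**Figure D2:**
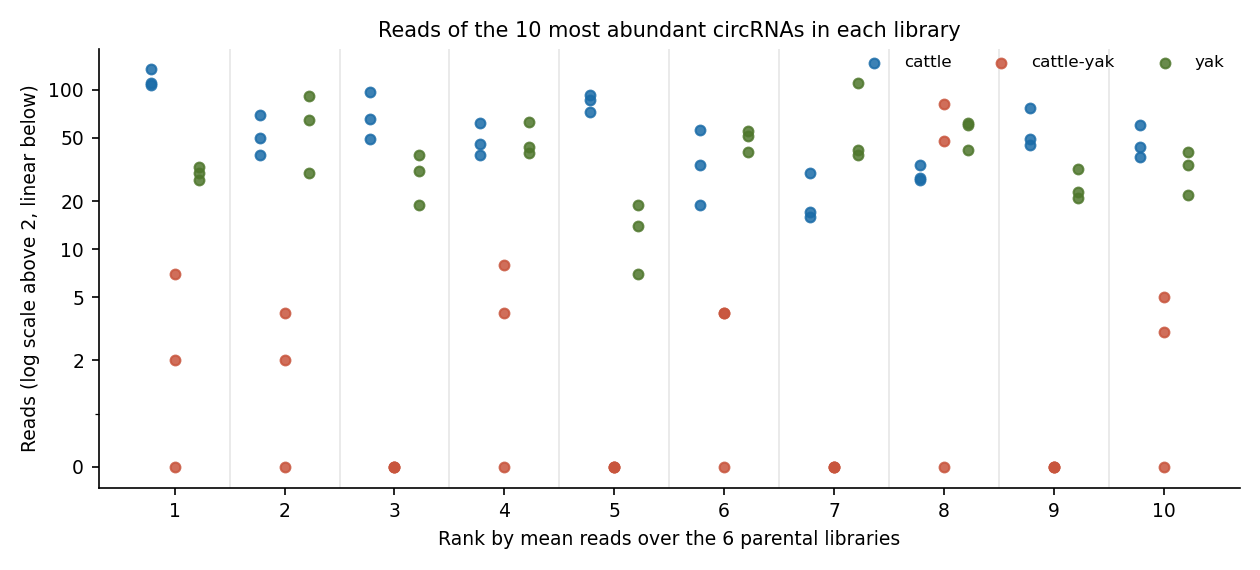
Reads per library (y axis, log scale above 2) for the 10 most abundant of the 532 circRNAs, ordered by mean reads over the 6 parental libraries (x axis), with 3 points per group. Ranks 3, 5, 7 and 9 are at 0 in all cattle-yak libraries, and rank 8 has 48 and 82 reads in 2 of them.

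The 357 circRNAs with some cattle-yak reads mostly had few. Among their 561 values above 0, the median was 3 reads, 150 were exactly 2 and 437 were between 2 and 5. The ratio of the parental to the cattle-yak mean, in scaled reads, had a median of 4.72 and quartiles of 2.55 and 10.3. Across all 532 the cattle-yak mean was more than 2 times below the parental mean in 475 circRNAs and more than 4 times below it in 368, with circRNAs at 0 set to the floor. Every cattle-yak library lay below every parental library in 349 of the 532, or 65.6%, where 9.42% of all 5730 circRNAs did so. The rule used this contrast, and nothing is read from that difference. The reverse, every cattle-yak library above every parental one, was seen in 15% of all circRNAs and in 0 of the 532, where the rule does not allow it.

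Some circRNAs met the rule while being well expressed in the hybrid. In 26 of the 532, at least 1 cattle-yak library had 10 reads or more, and in 7 the cattle-yak mean was at or above the parental mean. Rank 8 had 48, 82 and 0 reads in cattle-yak, 28, 34 and 27 in cattle and 62, 42 and 60 in yak. Its first 2 cattle-yak libraries exceeded all cattle libraries, and the other had none. In novel_circ_0009861 (rank 14) the reads were 38, 0 and 61 in cattle-yak, 74, 62 and 48 in cattle and 7, 6 and 10 in yak. Rank 169 had 0, 0 and 57 reads in cattle-yak against 13, 4 and 9 in cattle and 11, 19 and 5 in yak. These entered through a 0 in 1 or 2 hybrid animals rather than through low reads in all 3. A 0 beside at least 10 reads in both other cattle-yak libraries was seen in 9 of the 532, in replicates 1, 2 and 3 for 4, 4 and 1 of them.

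**Figure D3:**
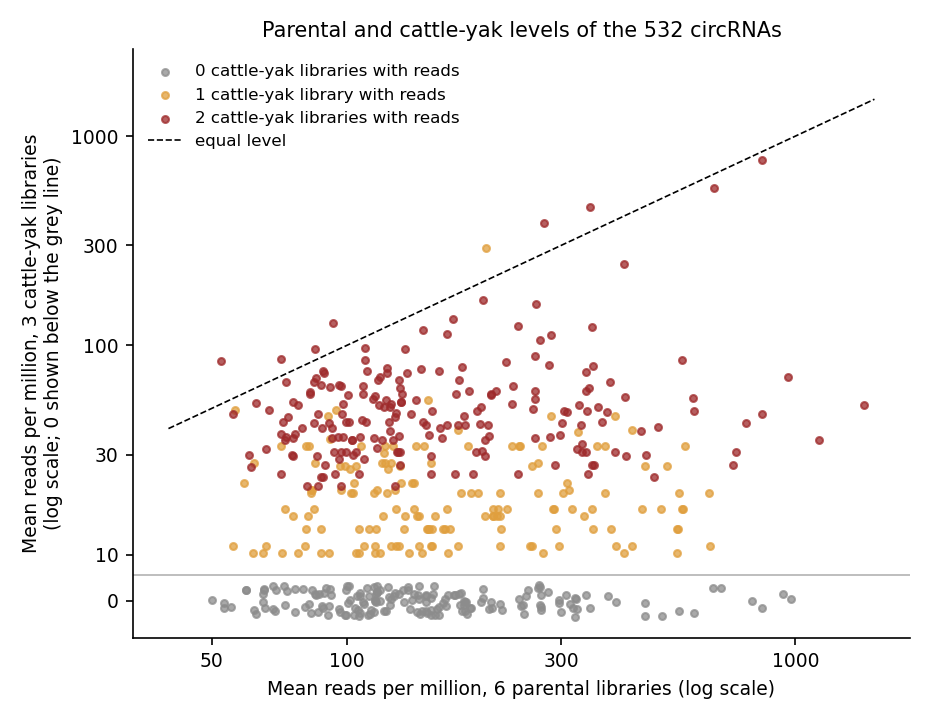
Mean reads per 1000000 table reads in the 3 cattle-yak libraries (y axis) against the 6 parental libraries (x axis) for the 532 circRNAs, both on log scales, coloured by how many cattle-yak libraries have reads; circRNAs at 0 are drawn below the grey line with a small random offset. Most lie below the line of equal level and 7 lie on or above it.

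The absences were spread over the hybrid animals. Reads in cattle-yak replicate 1 alone were found for 55 circRNAs, in replicate 2 alone for 57 and in replicate 3 alone for 41. Replicates 1 and 2 shared reads, with replicate 3 lacking them, for 90 circRNAs. The other two pairs, replicates 1 and 3 and replicates 2 and 3, each did so for 57. When cattle-yak replicate 1, 2 or 3 was left out, 475, 475 and 442 circRNAs met the rule, and leaving out a parental library gave 579 to 664. With a library left out, presence is asked of fewer libraries. The count can then only fall without a cattle-yak library and only rise without a parental one.

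CircRNAs with reads in 2 of 3 cattle-yak libraries had the same parental median as those just outside the rule. These 204 had a median parental mean of 6.67 reads, quartiles of 5 and 13.5, and a median cattle-yak mean of 2.67. Not all were borderline, as parental means reached 74 reads and single cattle-yak libraries 82. Just outside, 145 circRNAs were present in all 9 libraries with a lowest cattle-yak value of exactly 2 reads. Their parental median was also 6.67 reads, with quartiles of 4.67 and 10.3, and their cattle-yak median 4.33.

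The same rule was applied with cattle or yak as the group that lacks the circRNA. Of 2029 circRNAs shared by both parents, 26.2% failed in cattle-yak. Of 1997 shared by cattle and cattle-yak, 500 or 25.04% failed in yak, and of 2051 shared by cattle-yak and yak, 554 or 27.0% failed in cattle. At this threshold the share in cattle-yak lay between those of the parent species, and under the other settings it was the highest of the 3. With at least 3 reads as presence the shares were 28.3% for cattle-yak, 26.1% for yak and 26.9% for cattle, and at 5 reads 31.6, 26.01 and 28.0%. With libraries scaled to the smallest total they were 29.4, 24.2 and 28.5%. These differences were not tested. Of the 554 lacking in cattle, 37 were at 0 in cattle replicate 2 beside at least 10 reads in both other cattle libraries.

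How low the circRNA was in the lacking group is given next. Where cattle-yak lacked the circRNA, 32.9% of circRNAs were at 0 in all 3 libraries, against 20% where yak lacked it and 11.7% where cattle lacked it. Levels in the lacking group were 6.71-fold below those of the other 6 libraries in cattle-yak, 3.15-fold in yak and 2.41-fold in cattle, from summed mean scaled reads. Libraries of the lacking group lay below all 6 others in 349, 166 and 174 circRNAs for cattle-yak, yak and cattle, where 9.42, 4.36 and 4.59% of all 5730 circRNAs did so. With each library of the lacking group left out in turn, the share at 0 in both that remained was 48.4 to 48.9% for cattle-yak, 33.0 to 35.1% for yak and 21.6 to 27.8% for cattle. The 3 lists share libraries and were chosen by their reads, and the difference between them was not tested.

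The shares also varied with abundance. Among shared circRNAs with a mean of 2 to under 5 reads in the other groups, 41.9% failed in cattle-yak, 58.6% in yak and 59.5% in cattle. At 5 to under 10 reads, the class with the most circRNAs, the shares were 29.4% in cattle-yak, 33.0% in yak and 33.8% in cattle. At a mean of 10 to under 20 reads the shares were 23.2% in cattle-yak, 16.9% in yak and 15.8% in cattle. At 20 or more reads 50 of 394 circRNAs, 12.7%, failed in cattle-yak, against 6.18% in yak and 11.5% in cattle. Complete absence at 20 or more reads was seen for 12 circRNAs in cattle-yak, 5 in yak and 4 in cattle. Cattle-yak thus had the lowest share in both classes under 10 reads and the highest in both classes above, and its replicates 2 and 3 had the highest table totals. These differences were not tested.

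**Figure D4:**
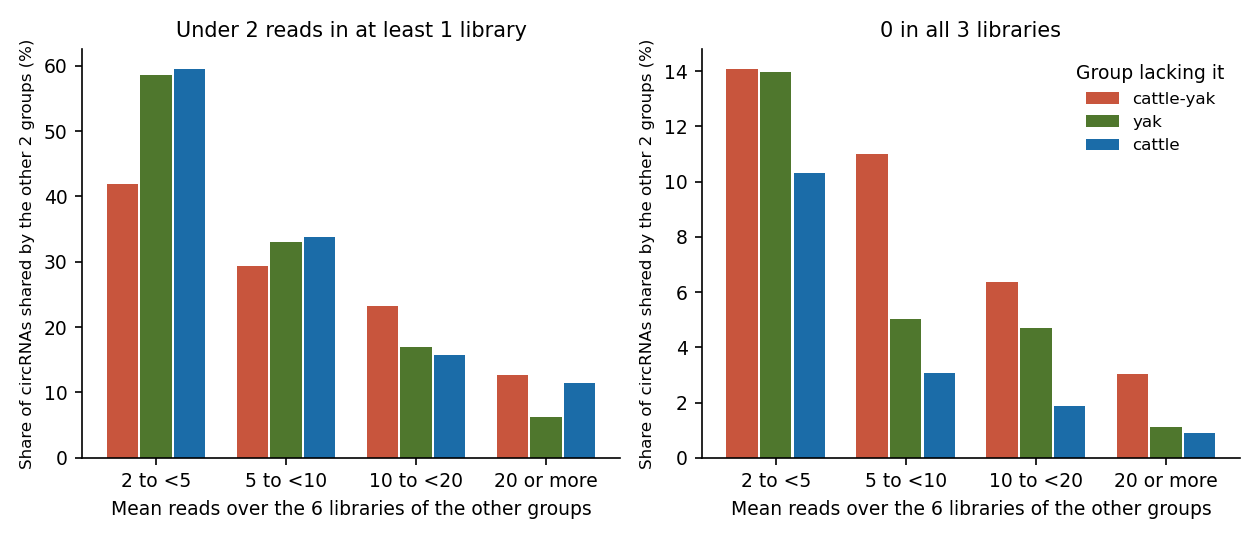
Share (%) of circRNAs shared by the other 2 groups that failed the threshold in a group (left) or were at 0 in all its libraries (right), by mean reads over the 6 libraries of the other groups (x axis). Cattle-yak has the lowest bar on the left at 2 to under 5 reads, 41.9%, and the highest at 10 to under 20 reads, 23.2%.

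Levels of the 532 in yak against cattle were compared next, since the rule asks for both species and does not fix which is higher. Edge cases limit this test: the rule removes circRNAs absent from 1 parent, and 453 of the 532 had the 5 reads in 3 libraries needed for it, some of them through 1 species only. Of the 20 circRNAs called below, 3 reached 5 reads in no library outside the species in which they were higher. Others, such as novel_circ_0002621, novel_circ_0027544 and novel_circ_0000489, did so outside it in too few libraries to pass without that species. Passing in either way selects for a difference, and the number of these others is not given here. Using edgeR's quasi-likelihood test with Benjamini-Hochberg adjustment over 3730 circRNAs, 7 of the 453 were higher in yak and 13 lower. Among all circRNAs tested, 4.93% were called higher and 6.92% lower. The 453 had a median log2 fold change of 0.040, and the median over all tested was -0.024. All 20 called circRNAs had cattle and yak libraries that did not overlap. This adds nothing to the calls, since circRNAs not called also showed it. One was novel_circ_0027192, with 11, 4 and 11 reads in cattle and 25, 21 and 23 in yak (edgeR, adjusted p = 0.0504). The share without overlap among all circRNAs tested is not given here. The differences called spanned 1.42 to 2.49 on the log2 scale for those higher in yak and 1.76 to 3.66 in size for those lower.

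The circRNA with the largest fall, novel_circ_0027135, had 28, 54 and 17 reads in cattle, with 2, 2 and 3 for yak and 3, 2 and 0 for cattle-yak. It is 1 of those 3, having reached 5 reads in cattle libraries alone. Its log2 change in yak was −3.66, and with no filter on reads the change was −3.64 (edgeR, adjusted p = 0.00122). The hybrid was as low as yak. In contrast novel_circ_0009861, described above, was also lower in yak by −2.88 (edgeR, adjusted p = 0.0386), yet 2 cattle-yak libraries were near the cattle level.

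Among those higher in yak, novel_circ_0024735 had 33, 20 and 12 reads in yak, 4, 4 and 4 in cattle and 4, 0 and 0 in cattle-yak, with a yak log2 change of 2.49. It passed the filter through yak alone, and with no filter the change was 2.51 (edgeR, adjusted p = 0.0213). It was followed by novel_circ_0002621, with 20, 23 and 40 reads in yak, 5, 8 and 4 in cattle and 0 throughout cattle-yak, a log2 change of 2.37 (edgeR, adjusted p = 0.0103). Outside yak only the cattle values of 5 and 8 reached 5 reads, so novel_circ_0002621 too passed the filter only with yak. With no filter its change was 2.38 (edgeR, adjusted p = 0.00607). With fewer libraries some of these calls were lost. Without any single cattle library novel_circ_0024735 was no longer called (edgeR, adjusted p = 0.0808 to 0.0880), and without any single yak library it failed the filter and has no value. In turn novel_circ_0002621 was not called without yak replicate 3 (edgeR, adjusted p = 0.0560). The call for novel_circ_0009861 was lost without each of the 3 cattle libraries, each of the 3 yak libraries or cattle-yak replicate 1 (edgeR, adjusted p = 0.0532 to 0.135). Of the 7 higher in yak, 4 were at 0 in all cattle-yak libraries, and of the 13 lower in yak 2 were, where 32.9% of the 532 were. These numbers are small and their difference was not tested. The counts were sensitive to single libraries: they ranged from 0 to 13 higher and from 4 to 19 lower when each library was left out, with 0 higher without yak replicate 3 (edgeR, where 22 had an unadjusted p under 0.05, and 0 by DESeq2). Leaving out cattle replicate 1, 2 or 3 gave 2, 2 and 1 higher and 4, 7 and 5 lower. Without yak replicate 1 or 2 they were 1 and 2 higher and 5 and 6 lower, and without yak replicate 3 the number lower was 5. Without cattle-yak replicate 2 they were 13 higher and 16 lower. Without the filter all 532 were tested, and 12 were higher and 19 lower where 5.78 and 8.31% of all circRNAs were. Of the circRNAs present in all 9 libraries, 3.67% were then higher and 3.47% lower.

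**Figure D5:**
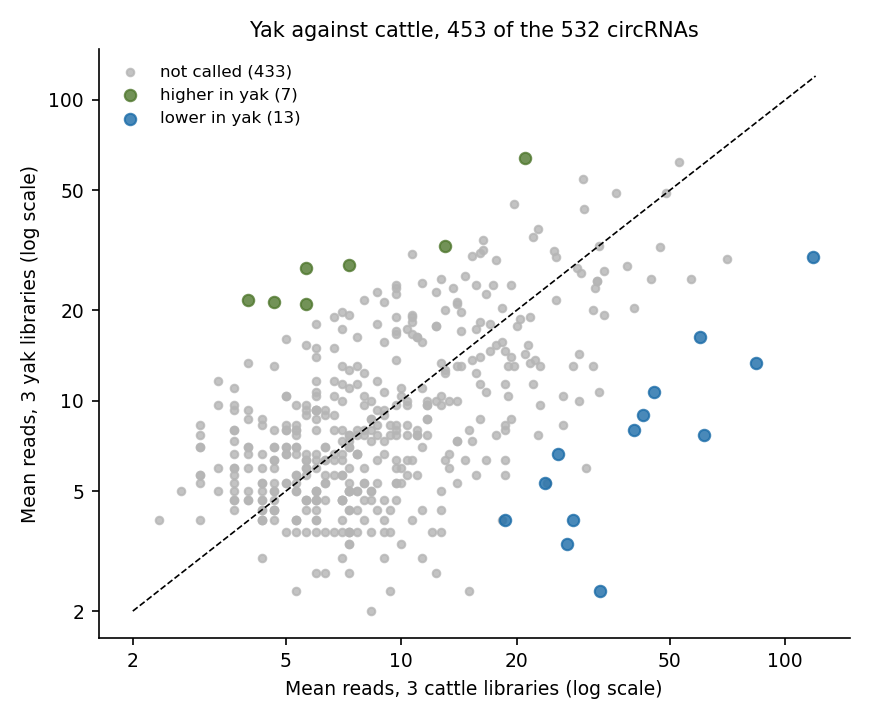
Mean reads in 3 yak libraries (y axis) against 3 cattle libraries (x axis), log scales, for the 453 circRNAs tested, with the 7 called higher and 13 called lower in yak in colour. The called circRNAs lie far from the dashed line of equal reads.

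Genes that make or remove circRNAs were read from the mRNA table, which the rule did not use. Of 20 factors known to promote or suppress back-splicing, 14 rose in cattle-yak against cattle and 14 against yak, and 0 fell in either (limma; 0 also had an unadjusted p under 0.05 and a lower level). Among all 14091 genes tested, the share called higher was 54.4% against cattle and 55.3% against yak, and the share called lower was 30% and 30.7%. The list's median log2 changes of 0.94 and 0.91 compare with 0.50 and 0.54 over all genes. Median-ratio scaling of the libraries, which brought those 2 medians to 0.020 and 0.0026, gave 10 higher and 6 lower against each parent. The list's medians were then 0.39 against cattle and 0.28 against yak. The shares of all genes called under this scaling are not given here, so nothing particular to the list is read from these counts. ADAR, an RNA-editing enzyme that opposes back-splicing in human cells, had hybrid levels of 29.6, 27.7 and 31.0 FPKM, beside 7.42, 7.13 and 5.91 in cattle and 3.68, 6.21 and 6.30 in yak. Compared with cattle the log2 difference was 1.97 ± 0.17 (SE; limma, adjusted p = 2.89e-06), and compared with yak it was 2.28 ± 0.17 (limma, adjusted p = 9.27e-07). The cattle-yak libraries lay above all 6 parental ones, and the direction was the same under median-ratio scaling. MBNL1, a splicing factor that promotes circularisation of its own transcript, averaged 29.8 ± 2.33 FPKM in the hybrid, 7.67 ± 0.588 in cattle and 10.3 ± 2.81 in yak, log2 differences of 1.83 and 1.47 (limma, adjusted p = 4.28e-06 and 1.56e-05).

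QKI, which promotes back-splicing in human cells, averaged 109 ± 2.32 FPKM (SD, n = 3) in the hybrid, 75.8 ± 6.92 in cattle and 70.4 ± 4.30 in yak, and was called higher against both. After median-ratio scaling its log2 changes were -0.043 and -0.0090 (limma, adjusted p = 0.664 and 0.929). DHX9, a helicase that suppresses circRNAs from paired repeats, rose from 50.6 ± 2.69 and 47.0 ± 2.41 FPKM to 79.2 ± 1.39, and was not called after that scaling (limma, adjusted p = 0.441 and 0.264).

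Of 13 tested factors of circRNA decay, export and modification, 7 were called higher in the hybrid and 3 lower, the same counts for both parents, and the median log2 changes were 0.51 for cattle and 0.48 for yak. The number called higher was near the share over all genes, 54.4 and 55.3%, as was the number lower beside 30 and 30.7%, and nothing particular to these factors is read from it. Median-ratio scaling gave 6 lower for either parent, with 5 higher against cattle and 4 higher against yak. Here too the shares over all genes under that scaling are not given. DDX39B, which exports long circRNAs in human cells, rose by 1.47 on the log2 scale against cattle, and its paralogue DDX39A, which exports short ones, averaged 87.5 FPKM in the hybrid beside 95.2 in cattle and 88.5 in yak and was not called, though median-ratio scaling called it lower (limma, adjusted p = 0.00108 and 0.00139). Between yak and cattle the back-splicing list had 0 higher and 1 lower (NONO, an RNA-binding partner of SFPQ), where 8.36 and 10.7% of all genes were called. At an unadjusted p under 0.05 (limma) these were 0 and 2.

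Germ cell and somatic markers moved in the same libraries. All 5 spermatid markers fell against both parents, while of 4 spermatocyte markers 1 (SYCP3, a chromosome axis protein) rose and 1 (PIWIL1, a piRNA-binding protein) fell. Summed spermatocyte markers overlapped between the groups, at 336 to 378 FPKM in cattle, 339 to 365 in yak and 225 to 358 in cattle-yak. All 4 spermatogonial, 3 Sertoli and 4 Leydig markers tested rose against both parents, with summed Leydig markers at 1445 to 2071 FPKM in cattle-yak against 188 to 339 in cattle and 236 to 551 in yak. Over all genes 54.4 and 55.3% were called higher and 30 and 30.7% lower against cattle and yak. The counts for the spermatid, spermatogonial, Sertoli and Leydig lists were the same after median-ratio scaling and quantile normalisation. Those for the spermatocyte list were the same against cattle but changed against yak under both. ACRV1, an acrosome protein, was listed at 0 in cattle-yak replicate 3. The part of these shifts in the circRNA levels was not tested.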

How the data were processed

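Testis RNA of 9 animals was measured. Counts of reads per circRNA and library are as deposited by the authors, per the file headers. The circRNA caller was not given in the sources used here. The TPM columns deposited beside them were checked to be reads per 1000000 table reads of the library, with no length term. Each listed circRNA reached 2 reads throughout 1 group or more, as found in the values. FPKM per protein-coding transcript, as deposited by the authors, was summed here per gene, with genes of at least 1 FPKM in 3 libraries tested. Per the submitters' processing notes, StringTie 1.3.4, HISAT2 2.0.5, Bowtie, Cufflinks and Trimmomatic are named, with build UMD3.1 and no roles. The 3 columns with no header were not used. The 9 small RNA samples were not analysed here.

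Samples were grouped by title. Yak against cattle circRNA counts were tested with edgeR 4.0.16 (quasi-likelihood, TMM, at least 5 reads in 3 libraries, 1 term for group over 9 libraries). For mRNA, limma 3.58.1 (R 4.3.3, trend) was run on log2(FPKM + 1), 1 being the pseudocount; fold changes on this scale understate the change of genes with low FPKM, and read depth behind FPKM is unknown. Tests were two-sided, adjusted by Benjamini-Hochberg, and called under an adjusted p of 0.05. Both fits were run on simulated data with planted changes. The share of these that was called is not given here, so the power of the tests is not stated. The planned tests of host genes were not made because the tables read here do not pair circRNAs with genes, and the naming rule (most abundant circRNAs, largest called differences) was therefore kept to a few IDs; ranks 8, 14 and 169 and the regulators named were chosen after values were seen. The members and lists were chosen with earlier results of these data known. Values of some listed genes are not reported here.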

Additional observations from a re-analysis of the deposited data

How the results depend on the processing

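Counting presence from at least 3 reads gave 443 circRNAs and from at least 5 reads 314, and scaling the libraries to the smallest total gave 479. Leaving out each library gave 442 to 664, and the rule fixes in which direction each count can move. When the library left out was a cattle-yak one, 216 to 232 were at 0 in the 2 that remained, beside 175 at 0 in all 3. A 0 in 2 libraries asks for less than a 0 in 3, so these counts are not alike. For yak against cattle, DESeq2 1.42.0 also called 7 higher and 13 lower, and 12 were higher without the filter. Leaving out each library gave 0 to 13 higher and 4 to 19 lower, with fewer libraries and the same filter; without a cattle library novel_circ_0027135, and without a yak library novel_circ_0024735, failed the filter and has no value. The replicate number as a block gave 3 higher and 10 lower, but same-numbered libraries share only a number (correlation of their deviations -0.033 to 0.044 in circRNAs and -0.17 to 0.23 in mRNA). For QKI, median-ratio scaling gave log2 changes of -0.043 against cattle and -0.0090 against yak. The same scaling gave 6 lower circRNA decay and export genes against each parent in place of 3, with 4 higher against yak in place of 7. The shares of all genes called under that scaling are not given here, so nothing particular to these genes is read from the counts. The host gene alternatives could not be run. The mRNA alternatives were chosen after seeing the data. Depth limits circRNAs near 2 reads, where 0 and 1 read are not separated.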

Other observations

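CircRNAs present throughout cattle-yak and throughout neither parent species numbered 1225, against 804 for cattle and 618 for yak counted the same way. In 857 of 5730 circRNAs all 3 cattle-yak libraries lay above all 6 parental ones, and in 540 they lay below.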
